A study of Mus musculus with 10 samples.

Results

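Membrane complement regulators and receptors are represented here by 4 genes: Cd55, Cd59a, Cr1l and Cr2, of the 19938 gene symbols on the arrays. They were chosen by name, and a symbol with several probe sets was to be read from the brightest, selected on its mean across the 10 arrays. That mean decided nothing, because each of the 4 symbols has 1 probe set. The list itself was drawn up with earlier results of these data known, so the low Cd55 values below are not independent evidence that this family changed.

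RNA came from B220+ cells sorted out of CFU-PreB colonies, which are colonies of B cell precursors grown from mouse bone marrow in methylcellulose, collected on day 7. The marrow came from 5 Hspa9+/- mice, called heterozygous here, and from 5 Hspa9+/+ littermates, called wild type, and each culture was independent. The groups were not treated. Hspa9 encodes mortalin, a mitochondrial chaperone. The labels give no age, strain or sex, and they do not say how the Hspa9 allele was made. Each sample was hybridised to 1 Mouse Gene 1.0 ST array. Values are RMA expression on the log2 scale, so a difference of 1 is a doubling. Every difference is the heterozygous mean less the wild type mean, over 5 arrays each.

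Complement is a cascade of plasma proteins that tags surfaces with fragments of C3 and can assemble a pore in membranes. Host cells hold it off with membrane regulators: CD55 speeds the decay of the C3 convertases, mouse Crry (the product of Cr1l) does this and also serves as a cofactor for cleaving C3b, and CD59 blocks the last step of the pore. CD21 and CD35, both made from Cr2 in the mouse, bind C3 fragments on B cells and lower the threshold of the B cell receptor. Surface CD21 is known as a marker that B cells gain after the immature stage, and CD55 and CD59 are held in the membrane by a lipid (GPI) anchor.

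2 of the 4 members, Cd55 and Cr1l, passed the filter on dim rows, a mean above 4.52 over all arrays. Cd59a and Cr2 lay below it, with means of 3.63 and 3.93, and their differences come from a fit without the filter. Cd55 was lower in every heterozygous array than in any wild type array. Cr1l, Cr2 and Cd59a overlapped between the genotypes. 0 genes passed limma's test over all 14953 genes (adjusted p under 0.05, 0.0% of genes), while 1650 genes (11.0%) had an unadjusted p under 0.05, 4.25% of genes on the lower and 6.79% on the higher side. Without the filter 0 genes passed as well and 10.4% had an unadjusted p under 0.05. The heterozygous mean was the lower one in 3 of the 4 members, against 38.7% of genes past the filter and 37.5% of all symbols.

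Hspa9, the targeted gene, was read at 9.52, 8.92, 9.30, 9.21 and 8.97 in heterozygous arrays 1 to 5 and at 9.49, 9.57, 10.36, 10.17 and 9.99 in wild type arrays 1 to 5. Heterozygous 1 lay above wild type 1, and the other heterozygous arrays lay below all wild type arrays. The difference was -0.73 (SE 0.185, limma adjusted p = 0.345). The same arrays, heterozygous 1 and wild type 1, were the only ones with Y-linked signal, and without both of them the Hspa9 difference was -0.92 (limma adjusted p = 0.133). B lineage markers averaged 10.40 to 10.88 in heterozygous arrays and 10.77 to 11.03 in wild type arrays. Of these 8 markers 7 had a lower heterozygous mean, against 38.7% of genes past the filter. Their median difference was -0.16 and 0 passed. Monocyte and macrophage markers were read as well and varied widely, from 6.81 to 9.40 in heterozygous arrays and from 5.77 to 8.67 in wild type arrays. Heterozygous 2 and wild type 1 were the highest arrays of their groups. Of the 14 measured markers of that list, 13 had a higher mean in heterozygous arrays and 0 passed. Neutrophil lineage markers past the filter were also higher in the heterozygous mean in 12 of 12, as were 5 of 6 plasmacytoid dendritic cell markers and 5 of 6 T and NK cell markers, none past the test over all genes. In each of the last 2 lists 4 of 6 had an unadjusted p under 0.05 on the higher side, against 6.79% of all genes. In 3 of the 6 T and NK cell markers (Cd3e, Nkg7 and Il2rb, named after their values were seen) the groups did not overlap, heterozygous higher, against 1.47% of all genes. The gaps were narrow, at 0.02, 0.01 and 0.06, and these genes averaged only 5.21, 5.31 and 4.73 over all arrays. Of 10 measured T and NK cell markers 6 passed the filter. The dim ones differed by -0.001 (Ncr1) to 0.42 (Cd3g) in the fit without the filter. The part of these cell types in the results below was not tested.

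Cd55 encodes the GPI-anchored decay accelerating factor. It was read at 6.28, 5.88, 5.69, 5.62 and 5.09 in heterozygous arrays 1 to 5. In wild type arrays 1 to 5 it was read at 6.62, 7.61, 7.81, 8.24 and 7.40. The groups did not overlap, with a gap of 0.34 between heterozygous 1, the highest of its group, and wild type 1, the lowest of its group. Of all genes past the filter, 0.809% were likewise lower without overlap, and 2.28% did not overlap in either direction.

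**Figure D1:**
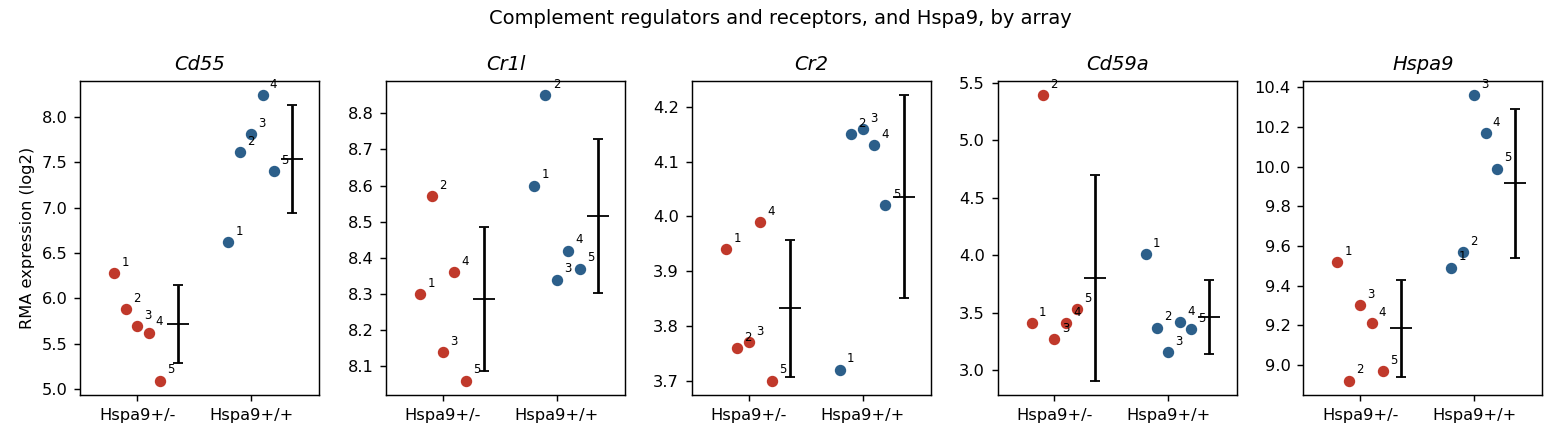
RMA expression (log2) of Cd55, Cr1l, Cr2, Cd59a and Hspa9 in each array, Hspa9+/- in red and Hspa9+/+ in blue, with the replicate number beside each point and the mean and SD (n = 5) beside each group; each panel has its own vertical range. Cd55 is separated by genotype with a gap of 0.34, and Cd59a has 1 high array, heterozygous 2 at 5.39.

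Cd55 averaged 5.72 ± 0.434 in heterozygous and 7.54 ± 0.599 in wild type arrays (SD), a difference of -1.82 (limma SE 0.291, 95% interval -2.46 to -1.18). On the linear scale heterozygous cells held 28.3% of the wild type signal (interval 18.1 to 44.1%). In bulk RNA, fewer cells with the transcript and less transcript per cell cannot be told apart. The limma adjusted p over all genes was 0.111, so the difference did not pass. The exact two-sided permutation test of this single row gave p = 0.00794, the smallest it can give with 252 splits of the arrays.

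The Cd55 difference was the lowest of all 14953 genes past the filter, and it ranked 8 by p-value. The next lowest genes were Ms4a1, which encodes CD20, at -1.57 (SE 0.312), and the glycosyltransferase gene B3gnt5, at -1.45 (SE 0.278). Cd55 was the lowest gene in 22 of the 23 fits run on 1 probe set per symbol and ranked 2, behind Xist, in the fit without both wild type 1 and heterozygous 2. It passed the threshold in 4 of these fits. Without both arrays with Y-linked signal it was -2.19 (SE 0.217, limma adjusted p = 0.0356). The difference was -2.05 without wild type 1 (adjusted p = 0.0224), and the difference was -1.95 with array weights (adjusted p = 0.0209).

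**Figure D2:**
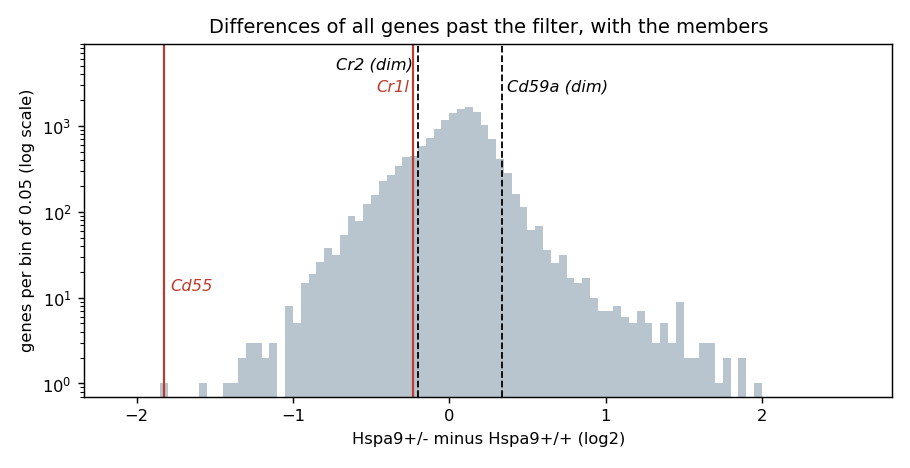
Number of genes (log axis) by their heterozygous minus wild type difference (log2, bins of 0.05) for the 14953 genes past the filter. The red lines mark Cd55 at -1.82, at the lower end, and Cr1l at -0.23, inside the bulk; the dashed lines mark the dim Cr2 at -0.20 and Cd59a at 0.34, from the fit without the filter.

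Over the 10 arrays Cd55 had r = -0.48 with the mean of the macrophage markers, and -0.39 after subtracting genotype means. With that mean as a covariate the Cd55 difference was -1.68 (SE 0.284, limma adjusted p = 0.0755). Without both arrays of highest macrophage signal, wild type 1 and heterozygous 2, it was -2.09 (SE 0.253, limma adjusted p = 0.0262), past the threshold that it missed over all arrays. Wild type 1 was also the wild type array lowest in Cd55 and the only wild type array with Y-linked signal. These properties cannot be told apart in this fit. Every fit in which Cd55 passed with arrays left out lacked wild type 1.

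**Figure D3:**
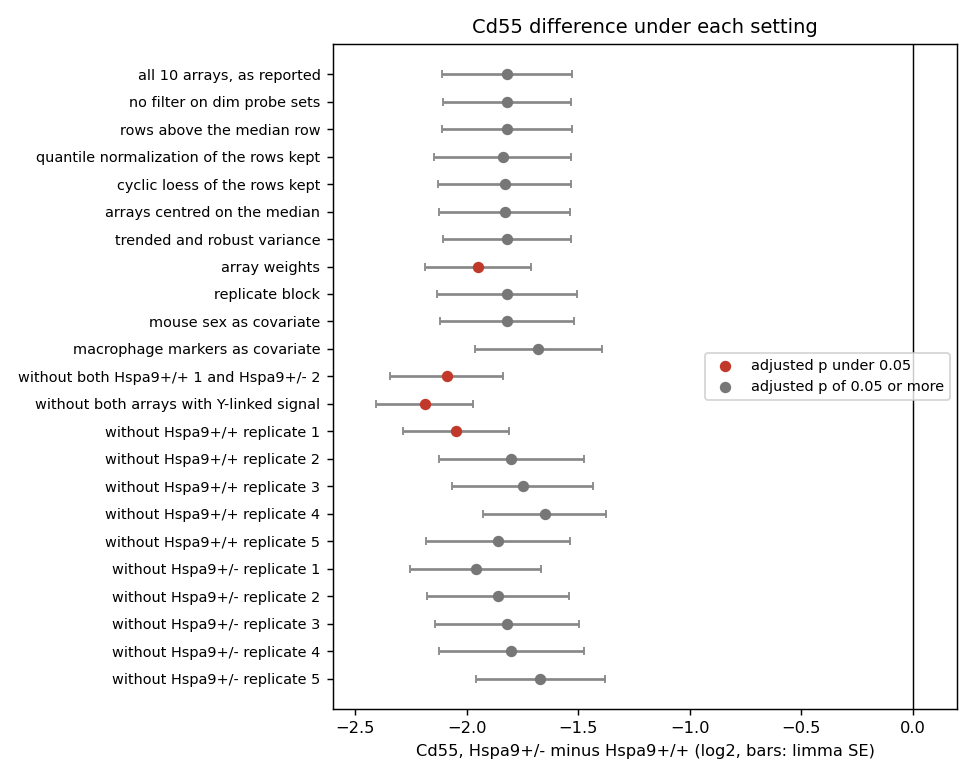
Difference of Cd55 (heterozygous minus wild type, log2) under each of 23 settings, with limma standard errors as bars and red points where the adjusted p was under 0.05. All points lie between -2.19 and -1.65, and 4 of them are red.

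Cd55 has a near copy beside it on chromosome 1, Cd55b, whose product is the transmembrane form of the same regulator and is known mainly from testis. Cd55b was dim, at 2.14, 2.41, 2.53, 2.44 and 2.48 in heterozygous arrays 1 to 5 and at 2.93, 2.59, 2.85, 2.69 and 2.78 in wild type arrays 1 to 5. It too did not overlap, with a gap of 0.07. The difference was -0.37 (SE 0.102, adjusted p = 0.352 in the limma fit without the filter). Over all symbols 0.667% were lower without overlap. How far the probes of either set bind transcripts of the other was not tested, so the Cd55 and Cd55b values are uncertain as to which copy they count.

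The RefSeq promoter table (GRCm38.p6) holds all 4 members. The 250 bases before the start of Cd55 and of Cd55b are shown because both sets were lower without overlap and the windows are related in sequence. Those of Cr2 are shown because Cr2, a dim row, followed Cd55 most closely among the members. Capitals mark runs of at least 12 bases that Cd55 and Cd55b share in the same order and that do not overlap each other. A shared stretch that overlaps a marked run is not marked. In Cr2 capitals mark the E boxes (CANNTG).
Cd55, chr1:130462745-130462994, minus strand: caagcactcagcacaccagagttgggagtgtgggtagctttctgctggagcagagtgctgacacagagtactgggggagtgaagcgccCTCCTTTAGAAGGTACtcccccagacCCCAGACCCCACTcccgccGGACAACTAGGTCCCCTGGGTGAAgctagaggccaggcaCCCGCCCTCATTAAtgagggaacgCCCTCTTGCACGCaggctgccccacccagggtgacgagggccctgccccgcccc
Cd55b, chr1:130423044-130423293, minus strand: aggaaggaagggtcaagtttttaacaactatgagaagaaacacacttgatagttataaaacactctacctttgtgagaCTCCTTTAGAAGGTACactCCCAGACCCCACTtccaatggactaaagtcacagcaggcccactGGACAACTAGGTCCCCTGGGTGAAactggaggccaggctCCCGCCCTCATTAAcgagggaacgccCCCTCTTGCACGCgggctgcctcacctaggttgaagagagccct
Cr2, chr1:195176720-195176969, minus strand: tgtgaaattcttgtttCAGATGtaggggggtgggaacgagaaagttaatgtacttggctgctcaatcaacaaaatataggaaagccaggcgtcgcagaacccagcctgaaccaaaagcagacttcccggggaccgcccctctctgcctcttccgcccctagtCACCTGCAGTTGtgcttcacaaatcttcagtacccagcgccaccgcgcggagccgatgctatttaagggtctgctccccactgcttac

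Cd55 and Cd55b share 5 such runs, 80 bases or 32% of the window. The longest, of 24 bases, holds CCCCTGGG, a match to the core letters CCCNNGGG of the site of EBF1, a transcription factor of the B lineage. It begins 105 bases before the start of Cd55 and 97 bases before that of Cd55b. The core was found in 11.8% of the 32851 promoter windows of this length, among the members also in Cd59a, and not in Cr2 or Cr1l. GC boxes (GGGCGG) stood at 2 places in Cd55, 1 in Cd55b and 2 in Cr2, and in 32.7% of all windows. Cr2 held 3 E boxes, the last pair adjoining each other, and Cd55 none, against 66.2% of windows with at least 1.

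The other motifs searched on both strands were TATAAA (12.4% of windows), CCAAT (33.8%), TGACG (17.8%), the kappa B site (0.14%), ATGCAAAT (1.6%), GAGGAA (23.3%) and TGGGAA (21.6%). Cd55 held only TGACG of these, and Cr2 only TGGGAA. Cd55b held TATAAA and CCAAT. These are matches of letters and show no binding.

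Cr1l encodes Crry, the main C3 convertase regulator on mouse blood cells. It was read at 8.30, 8.57, 8.14, 8.36 and 8.06 in heterozygous arrays 1 to 5 and at 8.60, 8.85, 8.34, 8.42 and 8.37 in wild type arrays 1 to 5. The ranges overlapped, with heterozygous 2 above 3 of the wild type arrays. The means were 8.29 ± 0.199 in heterozygous and 8.52 ± 0.211 in wild type arrays (SD). The difference was -0.23 (SE 0.131, limma adjusted p = 0.517, 95% interval -0.52 to 0.06), and the interval includes 0. The exact permutation p was 0.103.

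Cr1l had r = 0.39 with the macrophage marker mean over the 10 arrays and 0.73 after subtracting genotype means. With the macrophage markers as a covariate its difference was -0.33 (adjusted p = 0.231). Without heterozygous 2 the difference was -0.30, and without wild type 2 the difference was -0.15. The part of macrophage RNA in the Cr1l values was not tested beyond this.

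Cr2 encodes the C3 fragment receptors CD21 and CD35. It was read at 3.94, 3.76, 3.77, 3.99 and 3.70 in heterozygous arrays 1 to 5 and at 3.72, 4.15, 4.16, 4.13 and 4.02 in wild type arrays 1 to 5. All but wild type 1 of the wild type arrays lay above all heterozygous arrays. Wild type 1 was the array of highest macrophage signal in its group. The means were 3.83 ± 0.127 in heterozygous and 4.03 ± 0.186 in wild type arrays (SD). The difference was -0.20 (SE 0.109, adjusted p = 0.532 in the limma fit without the filter, interval -0.44 to 0.04). The exact permutation p was 0.0873. Without wild type 1 the difference was -0.28. Both groups lay below the filter for dim rows, where RMA compresses differences.

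Cd59a encodes the GPI-anchored inhibitor of the membrane pore. It was read at 3.41, 5.39, 3.27, 3.41 and 3.53 in heterozygous arrays 1 to 5 and at 4.01, 3.37, 3.16, 3.42 and 3.36 in wild type arrays 1 to 5. Heterozygous 2 and wild type 1 were the highest of their groups, and these are the arrays highest in macrophage markers. The means were 3.80 ± 0.895 in heterozygous and 3.46 ± 0.321 in wild type arrays (SD), with an exact permutation p of 0.548. The difference of 0.34 (SE 0.365, adjusted p = 0.731 in the limma fit without the filter) rested on 1 array, being -0.061 without heterozygous 2 and -0.0272 with macrophage markers as a covariate. Across the 10 arrays the correlation with the macrophage marker mean was 0.82, and 0.80 after subtracting genotype means. Its neighbour and near copy Cd59b was dim as well, at -0.33 (SE 0.259, adjusted p = 0.634 in the limma fit without the filter).

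The measured genotype differences of the members were not equal. Comparing the genotypes on the within-array difference of each of the 6 pairs by exact permutation, the Cd55 difference less the Cr1l difference was -1.59 (exact p = 0.00794, adjusted over the 6 pairs 0.0238). The values were -1.62 for Cd55 against Cr2 (adjusted exact p = 0.0238) and -2.16 for Cd55 against Cd59a (adjusted exact p = 0.0318). All 3 kept an adjusted exact p between 0.0159 and 0.0476 when any 1 array was left out. The pairs without Cd55 did not pass over all arrays, at -0.03 for Cr1l against Cr2 (adjusted exact p = 0.937), 0.57 for Cd59a against Cr1l (0.167) and 0.54 for Cd59a against Cr2 (0.409). Cr2 and Cd59a lay below the filter, where RMA compresses differences, so the pairs with them may overstate how far Cd55 differed. Cd55 was also known to be low when the list was drawn up, which limits what these p-values show.

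Across the 10 arrays Cd55 and Cr2 varied together more than any other pair, with Pearson r = 0.81 (permutation p = 0.00954, adjusted over 6 pairs 0.0572) and Spearman rho = 0.76 (permutation p = 0.0153, adjusted 0.0918). Neither passed after adjustment. Cr2 lay below the filter and ran only from 3.70 to 4.16 over all arrays. The correlation was 0.71 without the 2 arrays farthest from the median of Cd55 and 0.78 after subtracting genotype means. Cd55 and Cr1l had r = 0.49 and 0.05 after subtracting genotype means. The other pairs ran from -0.50 for Cd59a and Cr2 to 0.34, and no adjusted permutation p of the 6 pairs was under 0.0572.

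Cd55 and Hspa9 were both lower in the heterozygous mean and varied together across the arrays. Over the 10 arrays r was 0.90 (permutation p = 0.00044, adjusted over the 4 members 0.00176) and rho was 0.89 (permutation p = 0.00124, adjusted 0.00496). It was 0.83 without wild type 3 and 4, the arrays farthest from the median of Hspa9, and 0.70 after subtracting genotype means. Heterozygous 1, with the highest Hspa9 of its group, also had the highest Cd55 of its group, and wild type 1, with the lowest Hspa9 of its group, had the lowest Cd55. This relation was computed after the values had been seen. The permutations moved arrays across genotypes, so a genotype difference in both genes by itself lowers these p-values, those of Cr2 included. No p-value was computed after subtracting genotype means. Of all genes past the filter 0.696% had an r with Hspa9 at least as high, and 15.1% did so after subtracting genotype means. Cr2 had r = 0.77 with Hspa9 (permutation p = 0.0119, adjusted 0.0238; 0.60 without the same arrays and 0.62 after subtracting genotype means). Of all genes 6.7% had an r with Hspa9 at least as high as Cr2, and 18.8% did so after subtracting genotype means. Cr1l had 0.11 and Cd59a had -0.53, neither past adjustment (adjusted permutation p of 0.753 and 0.133), and after subtracting genotype means they had -0.58 and -0.54.

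**Figure D4:**
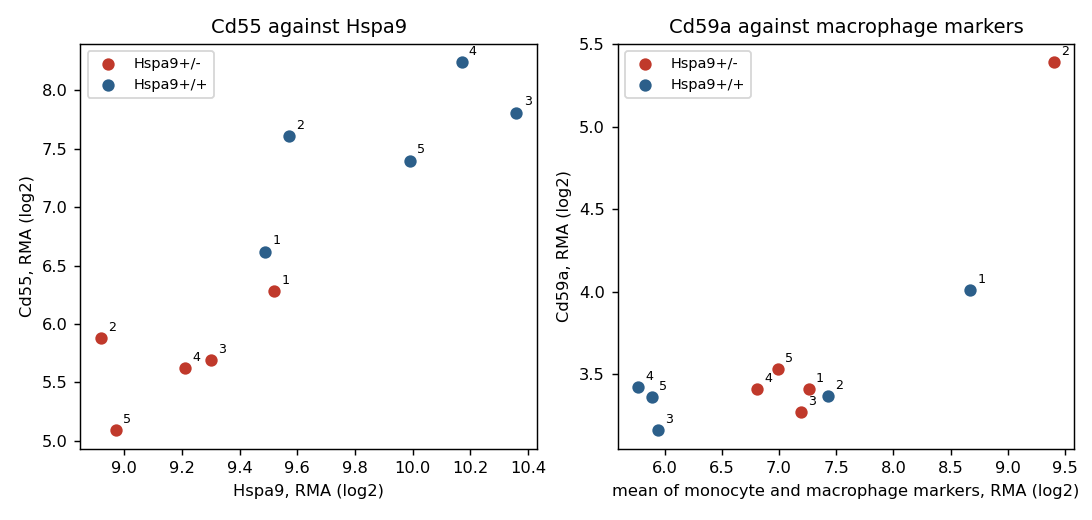
Left, Cd55 against Hspa9; right, Cd59a against the mean of the monocyte and macrophage markers (all RMA, log2), 1 point per array with its replicate number, Hspa9+/- in red and Hspa9+/+ in blue. Cd55 and Hspa9 have r = 0.90, with replicate 1 of both genotypes lying side by side, and Cd59a is high in heterozygous 2 and wild type 1.

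The genes most like Cd55 across the arrays were also lower without overlap, as were 0.809% of all genes past the filter. They were picked for their correlation with a gene whose groups did not overlap. Their own lack of overlap therefore follows in part from that choice and is no separate result. In B3gnt5 the highest heterozygous and the lowest wild type value were both 7.43 after rounding. Among 13767 named genes past the filter the highest r belonged to B3gnt5, which extends lactosylceramide into complex glycolipids, at 0.980. It was followed by the protease inhibitor gene Serpinb1a at 0.974, the exchange factor gene Ralgps2 at 0.966, Aste1 at 0.962 and the F-box gene Fbxl5, which regulates iron regulatory proteins, at 0.957. After subtracting genotype means these values were 0.928, 0.884, 0.889, 0.881 and 0.841, in the same order of genes. Their genotype differences were -1.45, -0.64, -1.35, -0.55 and -0.75, with limma adjusted p between 0.220 and 0.345.

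The other members had different nearest genes. Those of Cd59a were Vash2 (r = 0.981), Rab13 (0.969), the neutrophil protease gene Prtn3 (0.963), Parp12 (0.960) and the membrane metalloprotease gene Mmp14 (0.954), all highest in heterozygous 2. Those of Cr1l were Igbp1 (0.928), Plgrkt (0.916), Smim26 (0.908), Txnip (0.898) and Ormdl1 (0.892). Those of Cr2 were Yeats4 (0.922), Hars2 (0.917), Polg2 (0.913), Tfam (0.910) and Anp32-ps (0.906), of which Polg2 and Tfam encode proteins that maintain mitochondrial DNA. The correlations share the same 10 arrays and were picked as the highest, so they are given as a description.

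Genes on either side of the members had differences of both signs, from -0.57 to 0.23. Of the 15 other protein-coding genes within 3 places of a member in the gene table, 9 had a lower and 6 a higher heterozygous mean. Over all symbols 37.5% had a lower one. The median difference of the 15 was -0.03. An unadjusted limma p under 0.05 was found in 3, against 10.4% of all symbols, and 0 passed the test. In 2 of the 15 the groups did not overlap, both lower, against 0.667% of all symbols. These were Cd55b and the chemokine receptor gene Cxcr4, the latter at -0.57 (SE 0.128, limma adjusted p = 0.297). Cd46, which lies next to Cr1l and encodes a C3b cofactor found in the mouse mainly on sperm, was dim. It ran from 3.08 to 3.39 in heterozygous arrays and from 3.18 to 4.26 in wild type arrays, with a difference of -0.54 (SE 0.185, adjusted p = 0.400 in the limma fit without the filter). The stem cell marker gene Cd34, on the far side of Cd46, was at 0.23 (SE 0.128, adjusted p = 0.506).

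Among the other genes of the complement system none passed over all genes, where the median difference was 0.058, and Cd55b alone was lower without overlap. Of 17 measured classical and lectin pathway components 14 passed the filter, 4 with a lower and 10 with a higher heterozygous mean and a median of 0.08. The smallest p belonged to the ficolin genes Fcna at 0.26 (SE 0.142) and Fcnb at 0.11 (SE 0.0934), the collectin gene Colec11 at 0.12 (SE 0.0837) and the C1q chain gene C1qb at 1.09 (SE 0.958). C1qb is also a macrophage gene and its error was nearly as large as its difference. Both measured genes of the alternative pathway were near their error, factor B (Cfb) at 0.15 (SE 0.120) and properdin (Cfp) at 0.45 (SE 0.645).

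The 3 terminal pathway genes past the filter had a median of 0.15, among them C8a and C8b of the membrane pore, both at 0.15 (SE 0.115 and 0.118). Of the soluble regulators 4 passed the filter with a median of 0.06, and vitronectin (Vtn) was at 0.28 (SE 0.163). Of the other membrane regulators 3 passed the filter, with a median of 0.11, among them Susd4 at 0.19 (SE 0.102) and Csmd1 at 0.11 (SE 0.0927). C8a, C8b, Vtn, Susd4 and Csmd1 averaged from 4.53 to 4.73 over all arrays, just above the filter at 4.52. The difference of Cd55 from each list was not tested.

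Other complement receptors, most of them known from myeloid cells, were mostly higher in the heterozygous mean, as were the macrophage markers, and the part of macrophage RNA was not tested. Of 8 receptors past the filter 7 had a higher heterozygous mean, with a median of 0.75 and 0 past the test. The C3a receptor gene C3ar1 was at 1.68 (SE 1.05), the integrin gene Itgax, part of complement receptor 4, at 1.09 (SE 0.675), Cd93 at 0.31 (SE 0.222) and the second C5a receptor gene C5ar2 at 0.13 (SE 0.108). C3ar1 and Itgax were highest in heterozygous 2, at 10.11 and 8.87. Cd93 averaged 9.93 over all arrays and also belongs to the list of pro-B and early progenitor genes below. Cd81, which encodes a tetraspanin found with CD21 on B cells, was at 0.21 (SE 0.133). Ifitm1, an interferon-induced membrane protein gene, was higher without overlap, at 1.02 (SE 0.202, limma adjusted p = 0.222), where 1.47% of genes were.

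**Figure D5:**
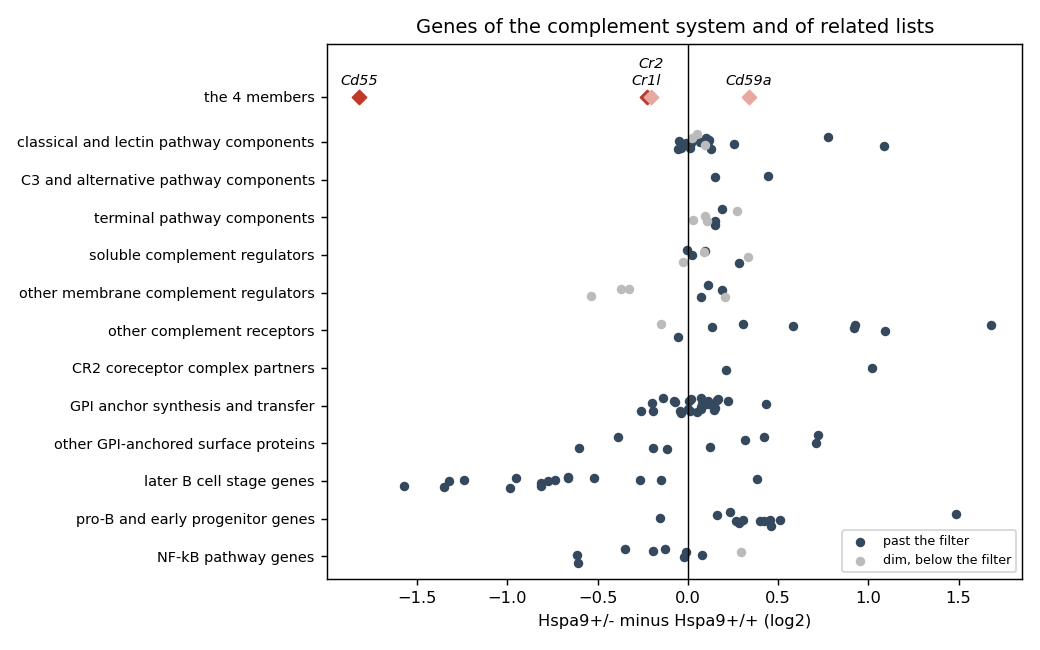
Heterozygous minus wild type difference (log2) of each measured gene in the complement lists and in related lists, with the 4 members as diamonds in the top row; grey points and pale diamonds are dim rows. Cd55 lies at -1.82, later B cell stage genes lie mostly below 0 with a median of -0.79, and the other complement receptors lie mostly above 0.

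CD55 and CD59 both depend on a GPI anchor. All 26 measured genes of GPI anchor synthesis and transfer passed the filter, 8 with a lower and 18 with a higher heterozygous mean and a median of 0.06. The transamidase subunit gene Gpaa1 was at 0.44 (SE 0.175) and Dpm1, which makes dolichol phosphate mannose, at -0.14 (SE 0.0955), while Pigu was at 0.16 (SE 0.114) and Pigh at 0.13 (SE 0.104). Of 9 other genes for GPI-anchored surface proteins 4 were lower and 5 higher in the mean, none past the test. The SLAM receptor gene Cd48 was at -0.60 (SE 0.151) and Cd24a, the heat-stable antigen, at -0.19 (SE 0.0839, limma adjusted p = 0.443). The groups of Cd24a did not overlap, with a gap of only 0.01, where 0.809% of genes past the filter were lower without overlap. Thy1 was at 0.71 (SE 0.211) and Bst2 at 0.72 (SE 0.246).

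Genes of later B cell stages were mostly lower, like Cd55. Of 16 measured genes of that list, to which Cd55 does not belong, 15 had a lower and 1 a higher heterozygous mean, with a median of -0.79 and 0 past the test over all genes. In 7 of the 16 the groups did not overlap, all lower, against the 0.809% given above for all genes. Those of smallest p were S1pr1 at -0.95 (SE 0.149), Bank1 at -1.32 (SE 0.227), Cd2 at -1.24 (SE 0.242) and Ms4a1, and the list was chosen with earlier results of these data known. Cd55 had r = 0.84 with the mean of the list and 0.31 after subtracting genotype means. Of 12 pro-B and early progenitor genes 11 had a higher and 1 a lower heterozygous mean, with a median of 0.35 and 0 past the test. Dntt was at 1.49 (SE 0.443), Vpreb2 at 0.51 (SE 0.162), Igll1 at 0.28 (SE 0.105) and Kit at 0.46 (SE 0.198).

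Of 8 NF-kB pathway genes past the filter, 7 had a lower heterozygous mean, against 38.7% of all genes past it. Their median was -0.16 and 0 passed the test. Among the 7, Nfkbie at -0.009 (SE 0.175) and Nfkb2 at -0.019 (SE 0.211) hardly differed. An unadjusted limma p under 0.05 on the lower side was found in 2 of the 8, against 4.25% of genes. The inhibitor gene Nfkbia was at -0.61 (SE 0.227), the subunit genes Rel and Relb at -0.61 (SE 0.234) and -0.35 (SE 0.166), and the feedback inhibitor gene Tnfaip3 at -0.13 (SE 0.120). Ptprc, whose product includes the B220 form used for the sort, ran from 7.89 to 9.76 in heterozygous arrays and from 9.35 to 10.07 in wild type arrays, with a difference of -0.68 (SE 0.345). It was -0.40 without heterozygous 5, the array that was also lowest in Cd55.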

How the data were processed

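The deposited table holds gene-level RMA values on the log2 scale for 35556 probe sets on 10 arrays, produced in Affymetrix Expression Console per the labels and the submitters' processing notes. Versions of that software are not given in the sources used here. Under RMA all arrays end up with nearly the same distribution, so a shift of most genes would be largely removed; array medians were 5.38 to 5.49. The small number of arrays limits precision. The platform annotation gave 21789 probe sets 1 symbol and 1621 several, and 12146 were not listed. With 1 row kept per platform symbol, 19938 symbols remained. Their rows were labelled with symbols updated by the RefSeq gene table (GRCm38.p6). Genes whose mean did not exceed the 25th percentile of 4.52 were dropped, and 14953 stayed.

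Heterozygous minus wild type differences were fitted in limma 3.58.1 (R 4.3.3; lmFit, eBayes), and a gene passed where its Benjamini-Hochberg adjusted p, taken across every gene in the fit, was under 0.05. Cd59a and Cr2, below the filter, come from a fit of all symbols. The procedure was tested on simulated data. Single genes were also tested by two-sided exact permutation over 252 splits, and correlations by 100000 permutations. Replicates are biological per the labels.

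The members and gene lists were chosen with earlier results of these data known. Named are the members, Hspa9, Ptprc, up to 4 genes of smallest p per list, the 5 genes of highest correlation with each member, and neighbours; any other gene was chosen after its values were seen. Alternatives were other filters, normalizations, variance models, array weights, covariates, a replicate block, and each array left out in turn.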

Additional observations from a re-analysis of the deposited data

Results flagged for a closer look

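In groups of 5 arrays, single arrays stood far from the others of their genotype for a number of the named genes: 15 of 136 groups tested, or 11.0%, where chance alone gives about 1 in 20. The 2 shares cannot be set against each other, because many of these genes were picked for their correlation with a member across the same 10 arrays, 8 of the 15 values included, so that an array high in Cd59a is high in its correlates by selection. Most of these values belong to heterozygous 2, the array of highest macrophage signal. Cd59a was at 5.39 there, with the next array at 3.53. The genes most like Cd59a were high in the same array, Vash2 at 5.63, Rab13 at 5.82, Prtn3 at 6.87, Parp12 at 6.79 and Mmp14 at 7.65. So were complement genes that macrophages express, C1qb at 9.68, Cfp at 9.68, Itgax at 8.87 and C3ar1 at 10.11.

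In wild type 1 Mmp14 was high at 6.67, while Yeats4 was low at 9.40 and Hars2 was low at 6.39. Cd46 was low at 3.08 in heterozygous 3, and Fcnb was high at 6.0 in heterozygous 5. The part of macrophage RNA in these values was not tested gene by gene.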

How the results depend on the processing

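Cd55 stayed lower in heterozygous arrays in every alternative run, with a range of -2.05 to -1.65 when 1 array was left out. It passed limma's threshold with array weights (-1.95), without both wild type 1 and heterozygous 2 (-2.09), without wild type 1 (-2.05) and, an alternative chosen after seeing the data, without both arrays with Y-linked signal (-2.19, adjusted p = 0.0356). Its exact permutation p of 0.00794 (-1.82) is a test of 1 row with no adjustment, as is that of Hspa9 (-0.73, p = 0.0159), which passed limma's threshold with array weights (-0.79) and ran from -0.84 to -0.62 without 1 array. Cr1l ran from -0.30 to -0.15 and Cr2 from -0.28 to -0.17 without 1 array, neither past the threshold in any alternative. Cd59a ran from -0.061 to 0.47 without 1 array and was -0.0272 with macrophage markers as covariate.

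Same-numbered arrays were not treated as pairs. The correlation of their deviations from the group means ran from -0.528 to 0.534 and was negative for replicate 1 only. Between wild type and heterozygous arrays of different numbers it ran from -0.604 to 0.743. With the replicate number as a block Cd55 was -1.82 (adjusted p = 0.551), Cr1l -0.23, Cr2 -0.20, Cd59a 0.34 and Hspa9 -0.73, and the block changed no call; the number of genes past the threshold remained 0. That number was 137 with array weights, 26 without both wild type 1 and heterozygous 2, 14 without both arrays with Y-linked signal, and 0 to 22 when 1 array was left out, with 22 without wild type 1 and 3 without heterozygous 2.

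For pairs of members, in leave-outs chosen after seeing the data, Cd55 against Cd59a ran from -2.53 to -1.80, Cd55 against Cr1l from -1.84 to -1.39 and Cd55 against Cr2 from -1.77 to -1.47 without 1 array. Cr1l against Cr2 ran from -0.12 to 0.075, above 0 without wild type 1 (0.075) or wild type 2 (0.027), Cd59a against Cr1l from 0.24 to 0.68 and Cd59a against Cr2 from 0.12 to 0.76. Without both wild type 1 and heterozygous 2 the last 2 were 0.35 and 0.34 and passed, each with an adjusted exact permutation p of 0.0343. Of 1428 values of 63 other named genes, 1395 kept their direction and side of the threshold, 23 passed it and 10, of 7 genes, changed sign. With macrophage markers as covariate Vash2 was -0.0345, Rab13 -0.0391, Prtn3 -0.0418, Mmp14 -0.0255, C1qb -0.0849 and Cfp -0.347. Without 1 array Vash2 ran from -0.0538 to 0.169, Rab13 from -0.0435 to 0.222, Parp12 from -0.0305 to 0.412 and Cfp from -0.0692 to 0.896, each lowest without heterozygous 2. The cause was not tested. With every probe set of 1 symbol as its own row Cd55 was -1.82 (limma adjusted p = 0.122), and no member's call changed. No other probe set is annotated with a member alone, so trying each such set gave no value.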

Other observations

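The arrays of replicate 1 in both genotypes were the only ones with Y-linked signal, so each genotype held 1 male and 4 female samples by these genes; the labels do not give sex. In the male pair Cd55 was 6.28 in heterozygous 1 and 6.62 in wild type 1, a difference of -0.34, while over the 4 female samples of each genotype it was -2.19. The interaction in limma was 1.86 (SE 0.485, unadjusted p = 0.00376, adjusted p = 0.322 over all genes), and with 1 array per genotype among males it rests on a single pair. In the same male pair Hspa9 differed by 0.03, against -0.92 in the females (interaction adjusted p = 0.337 in limma), and Cr2 by 0.22, against -0.31 (adjusted p = 0.384 in the limma fit without the filter). Cr1l differed by -0.30 in the male pair and by -0.21 in the females, and Cd59a by -0.61 and 0.57. Sex and the other properties of these 2 samples cannot be told apart.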
